A study of Xenopus laevis with 9 samples.

Results

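Collagens, laminins and other matrix genes were taken from the array by annotated symbol: fibrillar, basement membrane and accessory collagens, fibronectin, fibrillin and fibulin, matricellular proteins, leucine-rich proteoglycans, the enzymes that modify and crosslink collagen, and the integrin receptors. With the L or S ending of the homeologous gene copies dropped, 83 of 15491 probe sets for *Xenopus laevis* transcripts matched, and they covered 52 gene symbols. Of the 83, 31 passed the filter on low signals and were tested, and 52 did not. No laminin chain was among the 83, nor were hspg2 (perlecan), agrn (agrin), dcn (decorin) or nid1. One member, itgb1bp2.L, matched the integrin pattern by its letters but encodes an integrin-binding protein.

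The primary mouth is the first opening between the outside and the gut, and it forms where anterior ectoderm lies directly on foregut endoderm. The basement membrane between the layers, a sheet of laminin, collagen IV, nidogen and heparan sulphate proteoglycan bound by cell receptors such as dystroglycan and integrins, is lost there before the layers thin and perforate. In *Xenopus*, the secreted Wnt antagonists Frzb1 and Crescent, made in the primary mouth region, are known to act on that loss. Fibronectin, fibrillins and fibrillar collagens make up the interstitial matrix around it.

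The 3 tissues were dissected from stage 26 embryos, with tissue of 75 to 100 embryos pooled for each sample: the primary mouth, the anterior dorsal tissue, and the ventral tissue with the cement gland, the mucus-secreting organ below the mouth. Each tissue had 3 arrays, and primary mouth arrays carried the names 1a, 2 and 3. No genotype or treatment distinguished the samples, and the strain was not stated. The labels do not say whether samples came from separate clutches, and the p-values measure the spread between these samples only. The samples are pooled bulk tissue, in which fewer cells of a type and less RNA per cell cannot be told apart.

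Signals are linear MAS5 values scaled to a common trimmed mean, with medians of 50.9 to 59.2 on the 9 arrays, and each array's filter threshold lay between 30.9 and 35.8. The number of arrays limits the precision. The beta-actin 3′/5′ control ratio, a measure of how far labelled RNA reached towards the 5′ end, divided the arrays into 2 sets: it was 5.48 to 11.2 on 4 arrays (primary mouth 1a and 2, anterior dorsal 1, ventral 1) and 1.46 to 2.03 on the other 5. Signals differed between these array sets for 2565 of 10011 probe sets tested and for 8 of the 31 members (nid2.L, itgb5.L, 1 of 4 fn1.S probe sets, serpinh1.S, col18a1.S, col6a1.L, col6a2.L and itgb1.S), so differences are also given with the array set as a term in the fit.

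Marker lists were counted to describe the dissected tissue. Some of their probe sets exceeded the filter threshold only in the tissue in which they were high. Examples are elavl3.L in anterior dorsal tissue, cpn1.S in primary mouth and tnni3.L in ventral tissue. The counts are therefore a description and give no support to the labels. Shares over all probe sets tested are given with the matrix counts below. Of 18 tested probe sets for forebrain and neural markers, in primary mouth 15 were lower than in the anterior dorsal piece and 7 were higher than in ventral tissue. Of 6 for the cement gland, 4 were higher than in anterior dorsal tissue and 5 lower than in ventral tissue. All 9 primary mouth and anterior ectoderm probe sets, a list that may rest on these same samples, were higher than in anterior dorsal tissue, and 8 were higher than in ventral tissue. Heart markers were also unequal: 2 of 4 were higher than in anterior dorsal and all 4 lower than in ventral tissue. Of foregut and liver probe sets, 3 of 4 were higher than in anterior dorsal and 2 lower than in ventral tissue, and of epidermal ones 2 of 4 were higher than in anterior dorsal tissue and 0 differed from ventral tissue. Blood and vessel markers had 2 of 3 higher than in anterior dorsal and 1 higher than in ventral tissue, and the 1 tested muscle probe set was lower than in ventral tissue.

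Of the 31 tested matrix probe sets, 10 differed between the primary mouth and 1 neighbouring tissue, and none passed against both. Between primary mouth and anterior dorsal tissue, 1 of 31 tested members was higher, against 4.68% of all probe sets tested. It was a fibronectin (fn1.S) probe set. On the lower side were 4 members (background 4.87%), namely dystroglycan (dag1.L), integrin β5 (itgb5.L), col1a2.L and thbs3.L. Between primary mouth and ventral and cement gland tissue, 5 members were higher (background 4.42%), namely matn4.L, sparc.L, col9a1.L, fbln1.L and fbn3.L, and 0 were lower (background 10.1%), where col1a2.L and itga3.L had no overlap and adjusted p of 0.0526 and 0.121. In both comparisons at once, 0 members were higher (background 1.16%) and 0 lower (background 0.659%) by limma. At an unadjusted p under 0.05 by limma, 7 were higher and 8 lower than in anterior dorsal tissue. Against ventral tissue 9 were higher and 2 lower, and in both comparisons 2 were higher and 1 lower. The share over all probe sets at that threshold was not computed, here or below, so such counts are only a description. The median log2 difference of the 31 members was 0.06 against anterior dorsal tissue and 0.14 against ventral tissue, compared with -0.01 and 0.06 over all probe sets tested. thbs3.L and col1a2.L among those lower than in anterior dorsal tissue, and matn4.L and col9a1.L among those higher than in ventral tissue, exceeded the filter threshold on no array of the tissue in which they were low. They passed the filter only through tissues in which they were high, so the counts of 4 and 5 are a description and give no support.

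**Figure D1:**
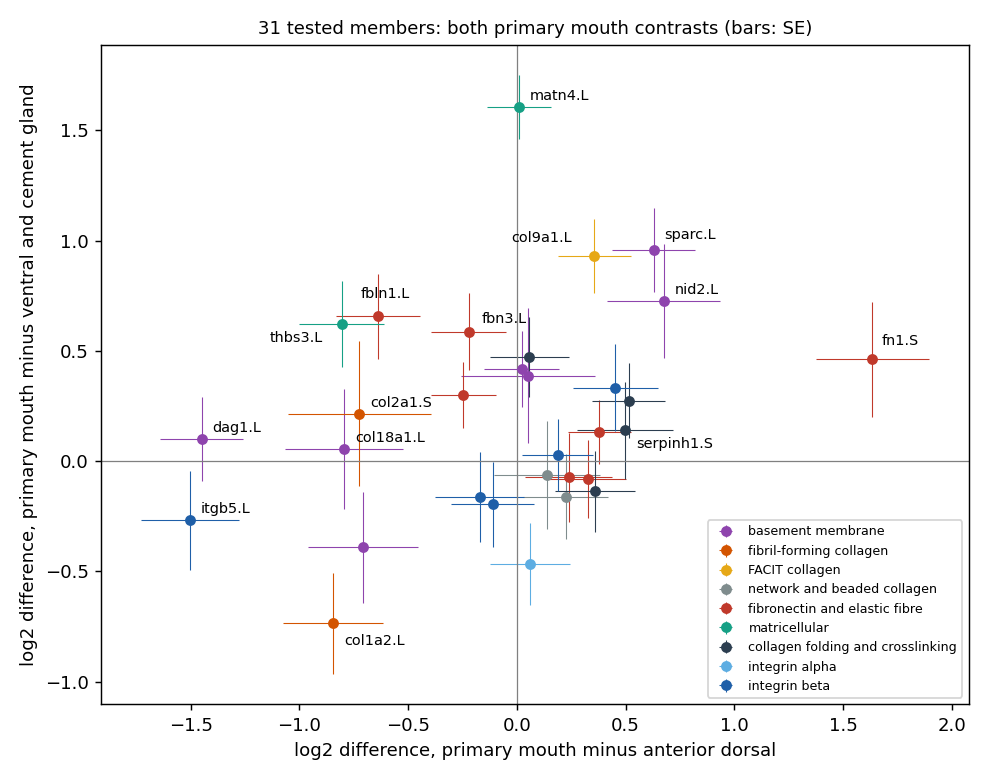
Log2 difference of each of the 31 tested members, primary mouth minus anterior dorsal tissue on the horizontal axis and primary mouth minus ventral and cement gland tissue on the vertical axis, coloured by role, with bars of 1 SE. dag1.L and itgb5.L lie at the far left at -1.45 and -1.50, matn4.L at the top at 1.61, the fn1.S probe set at the right at 1.64, and most integrin and processing members near the centre.

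With the array set in the fit the counts were larger for members and background alike. Against anterior dorsal tissue 4 members were higher (background 7.9%) and 7 lower (8.11%), and against ventral tissue 8 were higher (8.76%) and 2 lower (13.8%). Then 2 members, nid2.L and sparc.L, were higher in primary mouth than in each neighbour (1.98%), and 1, col1a2.L, was lower than in both (1.35%). All 20 calls made without that term, over the 3 comparisons, were also made with it.

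Between both neighbours, anterior dorsal minus ventral and cement gland tissue, 9 members were higher (background 10.5%) and 1 was lower (14.1%), or 29% and 3.23% of the 31. With the array set as a term these were 11 (17.7%) and 4 (19.1%). The 9 were dag1.L, col18a1.L, fbln1.L, both fbn3.L probe sets, col9a1.L, matn4.L, thbs3.L and itgb5.L, and the 1 was the fn1.S probe set. Of the 9, thbs3.L, col9a1.L, matn4.L and the dimmer fbn3.L probe set exceeded the filter threshold on no ventral array. They passed the filter only through tissues in which they were high, so the count of 9 is a description and gives no support. Both primary mouth comparisons share the primary mouth samples, and each shares a neighbour with this one. Of the 31 members, 13 had their highest mean in primary mouth, 11 in anterior dorsal tissue and 7 in ventral tissue. Over all probe sets tested those shares were 31.4%, 36.5% and 32.1%.

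Among basement membrane members, dystroglycan had the largest difference. dag1.L, 1 of 2 homeologous genes for the receptor that anchors cells to laminin, had signals of 169, 106 and 121 in primary mouth, 397, 371 and 376 in the anterior dorsal piece and 98.1, 142 and 123 in the ventral and cement gland piece. The anterior dorsal arrays lay far above all the others, and the primary mouth and ventral arrays overlapped. The log2 difference, on log2(signal + 16) as for all differences here, was -1.45 ± 0.19 (SE, adjusted p = 0.000343) against anterior dorsal tissue, and it was -1.46 and -1.51 within the array sets. Against ventral tissue it was 0.10 ± 0.19 (SE, adjusted p = 0.772), and anterior dorsal minus ventral tissue gave 1.55 ± 0.19 (SE, adjusted p = 7.98e-05). The other copy, dag1.S, was dim, with 19.9, 25.5 and 17.2 in primary mouth, 27.1, 66.3 and 45 in the anterior dorsal piece and 20.8, 48.3 and 31.2 in the ventral and cement gland piece. All primary mouth arrays lay below the anterior dorsal ones, but the difference, -0.71 ± 0.25 (SE, adjusted p = 0.11), did not pass, and dag1.S exceeded the filter threshold on 3 arrays only. bcam.L, which is not a member, encodes a laminin receptor of the Lutheran family. 1 of its probe sets was lowest in primary mouth, with 84.4, 89.6 and 87.3 there, 232, 214 and 258 in the anterior dorsal piece and 121, 149.9 and 125 in the ventral and cement gland piece. The difference was -1.28 ± 0.15 (SE, adjusted p = 0.000181) against anterior dorsal tissue and -0.51 ± 0.15 (SE, adjusted p = 0.0441) against ventral tissue. The call against ventral tissue was lost when any 1 of the 9 arrays was left out (adjusted p of 0.0547 to 0.171). Another bcam.L probe set lost its call against anterior dorsal tissue without primary mouth array 1a or 2 or anterior dorsal array 2 or 3 (adjusted p of 0.0535 to 0.093). bcam.L is taken from the receptor list counted below, whose probe sets did not all run low. Of the 26 tested on that list, 3 were higher (background 4.42%) and 4 lower (10.1%) than in ventral tissue.

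Collagen XVIII is the basement membrane collagen whose end fragment is endostatin. col18a1.L had 129, 65.7 and 67.3 in primary mouth, 159, 173 and 139.9 in the anterior dorsal piece and 100.1, 102 and 48.6 in the ventral and cement gland piece. Every anterior dorsal array was above every ventral and primary mouth array, with primary mouth 1a at 129 the nearest. The mean was 87.5 ± 36.3 in primary mouth, 157 ± 16.7 in the anterior dorsal piece and 83.5 ± 30.3 in the ventral and cement gland piece (SD, n = 3 each). Anterior dorsal minus ventral tissue passed at 0.85 ± 0.27 (SE, adjusted p = 0.04). That call was lost when anterior dorsal array 1, 2 or 3 or ventral array 3 was left out (adjusted p of 0.0678 to 0.163). Against anterior dorsal tissue the primary mouth difference, -0.79 ± 0.27 (SE, adjusted p = 0.0979), did not pass, and with the array set as a term it was -0.89 (adjusted p = 0.0251). The S copy, col18a1.S, had 266, 279 and 127 in primary mouth, 257, 218 and 151 in the anterior dorsal piece and 224, 156 and 112 in the ventral and cement gland piece. Its 3 groups overlapped and no difference passed.

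Nidogen 2 and SPARC had their highest means in primary mouth. nid2.L encodes nidogen 2, a linker between laminin and collagen IV, and had 512, 464 and 798 in primary mouth, 296, 355 and 423 in the anterior dorsal piece and 239, 462 and 357 in the ventral and cement gland piece. All primary mouth arrays were above all others, with array 2 at 464 and ventral array 2 at 462 almost level. The log2 differences of 0.67 ± 0.26 (SE, adjusted p = 0.138) against anterior dorsal and 0.73 ± 0.26 (SE, adjusted p = 0.0845) against ventral tissue did not pass, whereas with the array set as a term they were 0.87 (adjusted p = 0.000912) and 0.93 (adjusted p = 0.000447). sparc.L encodes SPARC (osteonectin), a collagen-binding glycoprotein found in basement membranes, and had 666, 861 and 814 in primary mouth, 569.8, 458 and 468 in the anterior dorsal piece and 504, 375 and 317 in the ventral and cement gland piece. The primary mouth arrays were again above all others. The mean was 780.4 ± 102 in primary mouth, 499 ± 61.8 in the anterior dorsal piece and 399 ± 95.5 in the ventral and cement gland piece (SD, n = 3 each). Its difference passed against ventral tissue, at 0.96 ± 0.19 (SE, adjusted p = 0.0048). Against anterior dorsal tissue it was 0.63 ± 0.19 (SE, adjusted p = 0.0625), and with the array set as a term 0.55 (adjusted p = 0.0318). The S copy was brighter, with 836, 828 and 1227 in primary mouth, 921, 876 and 1004 in the anterior dorsal piece and 699.9, 689.8 and 728 in the ventral and cement gland piece, and primary mouth and anterior dorsal arrays overlapped. Its differences were 0.02 ± 0.17 (SE, adjusted p = 0.957) and 0.42 ± 0.17 (SE, adjusted p = 0.138), the second of which passed with the array set as a term, at 0.48 (adjusted p = 0.0283).

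**Figure D2:**
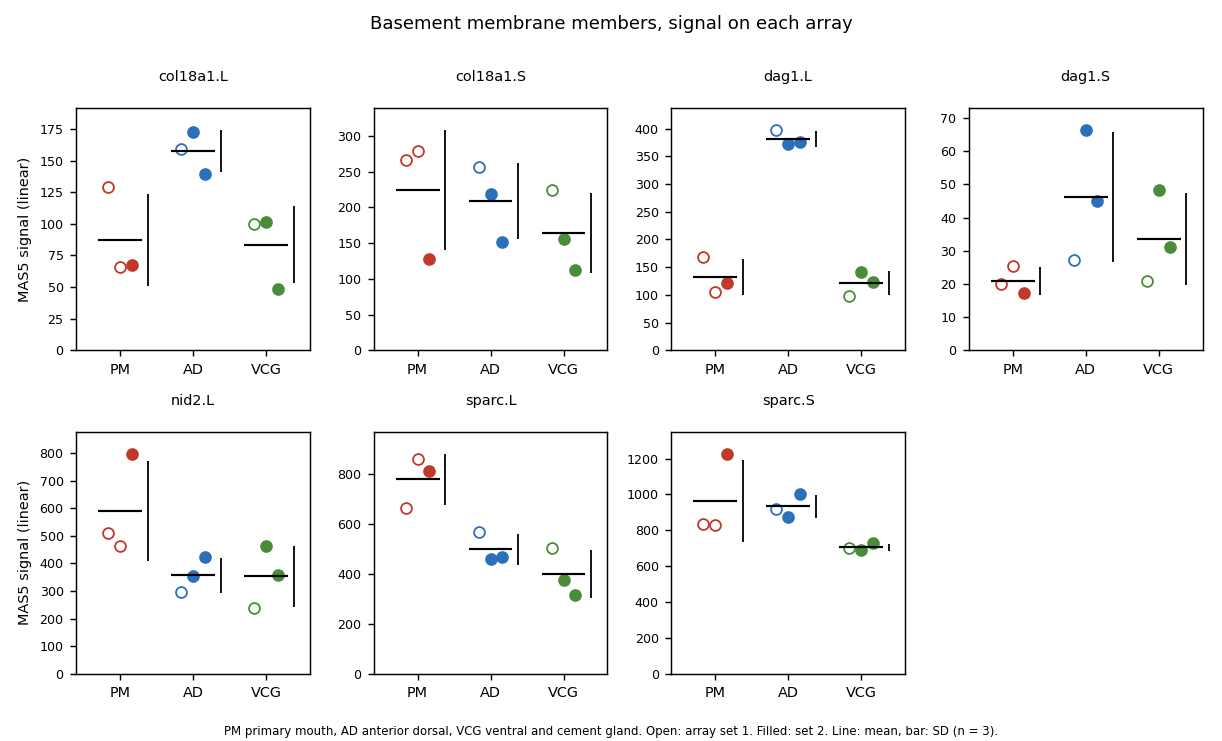
MAS5 signal (linear) of the 7 tested basement membrane members on each array, primary mouth (PM), anterior dorsal (AD) and ventral and cement gland (VCG), open circles for array set 1 and filled for set 2, with the mean as a line and the SD as a bar (n = 3). dag1.L and col18a1.L are highest in AD, nid2.L and sparc.L in PM, and the open and filled circles separate for nid2.L and col18a1.S.

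Collagen IV itself was measured near the bottom of the scale. Both col4a1.L and both col4a2.L probe sets stayed below the filter threshold on all 9 arrays, with signals of at most 27.8 and a median of 3.56, and were left out by the filter. Fitted without the filter, none of their differences passed.

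Marker lists of several cell types had their highest sums in the same tissue as these genes. The summed signal of the 25 forebrain and neural marker probe sets was 1421 to 1696 in primary mouth, 5890 to 6634 in anterior dorsal and 643 to 1043 in ventral tissue, highest where dag1.L and col18a1.L were highest. The summed signal of 9 neural crest and head mesenchyme probe sets was 1120 to 1745 in primary mouth, 581 to 784 in anterior dorsal and 685 to 1131 in ventral tissue, highest where nid2.L and sparc.L were highest though overlapping with ventral tissue, with 3 of its 4 tested probe sets higher than in anterior dorsal and 2 higher than in ventral tissue. Within the neural crest list sox10.L ran the other way, at 8.38 to 15.2 in primary mouth and 27.3 to 43.6 in anterior dorsal tissue. The dim, untested snai2.S had its lowest mean, 6.46, in primary mouth. Its anterior dorsal mean was 8.53 and its ventral mean 14.4. dlx2.S ranged from 232 to 598 over the primary mouth arrays and overlapped the ventral ones, at 294 to 552. sox9.S and tfap2a.L were above every array of both neighbours. The primary mouth and anterior ectoderm list and the blood and vessel list were also highest in primary mouth. For blood and vessel the sum was 554 to 776 there, 259 to 315 in anterior dorsal and 383 to 450 in ventral tissue. No value of these lists was at 0. Their part in the differences was not tested.

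**Figure D3:**
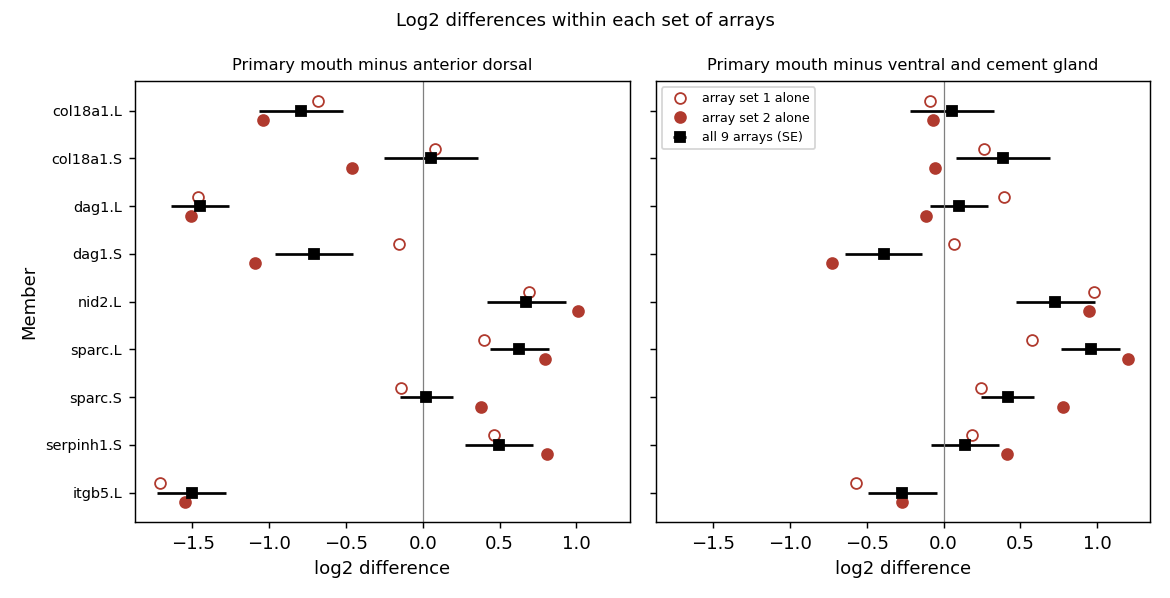
Log2 difference of 9 members in both primary mouth comparisons, over all 9 arrays (squares, bars of 1 SE) and within array set 1 (open circles) and set 2 (filled circles) alone. dag1.L, itgb5.L, nid2.L and sparc.L keep their side of 0 against anterior dorsal tissue in both sets, at -1.46 and -1.51 for dag1.L, while col18a1.S and sparc.S change sides.

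In fibronectin and the elastic fibre, all 7 members were tested. Fibronectin is the glycoprotein on which mesoderm migrates in *Xenopus* gastrulae, and its S copy had 4 probe sets. They are called A to D here, D, B and C being the plain, a_at and x_at forms of 1 entry and A a separate entry. Probe set A had 1778, 1828 and 1142 in primary mouth, 607, 430.3 and 444 in the anterior dorsal piece and 1622, 1058 and 819 in the ventral and cement gland piece. Primary mouth and ventral arrays were all above the anterior dorsal ones, and overlapped each other. The difference against anterior dorsal tissue was 1.64 ± 0.26 (SE, adjusted p = 0.00135), or 1.55 and 1.35 within the array sets. Against ventral tissue it was 0.46 ± 0.26 (SE, adjusted p = 0.275), and anterior dorsal minus ventral tissue gave -1.17 ± 0.26 (SE, adjusted p = 0.00549).

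The other 3 fn1.S probe sets gave smaller differences. Probe set B had 3927, 3919.8 and 3644 in primary mouth, 2793, 3146 and 2898 in the anterior dorsal piece and 3967, 3241 and 3309.5 in the ventral and cement gland piece, with primary mouth above anterior dorsal on every array and a difference of 0.38 ± 0.14 (SE, adjusted p = 0.139). Probe set C, of the x_at type whose probes can match other transcripts, gave 0.33 ± 0.18 (SE, adjusted p = 0.305), and D gave 0.24 ± 0.20 (SE, adjusted p = 0.531). All 4 thus lay above 0 against anterior dorsal tissue, from 0.24 to 1.64, and 1 passed. Against ventral tissue they ran from -0.08 to 0.46 with none past the test. Which transcript ends or exons the 4 probe sets cover was not analysed here, and the difference between them was not tested.

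**Figure D4:**
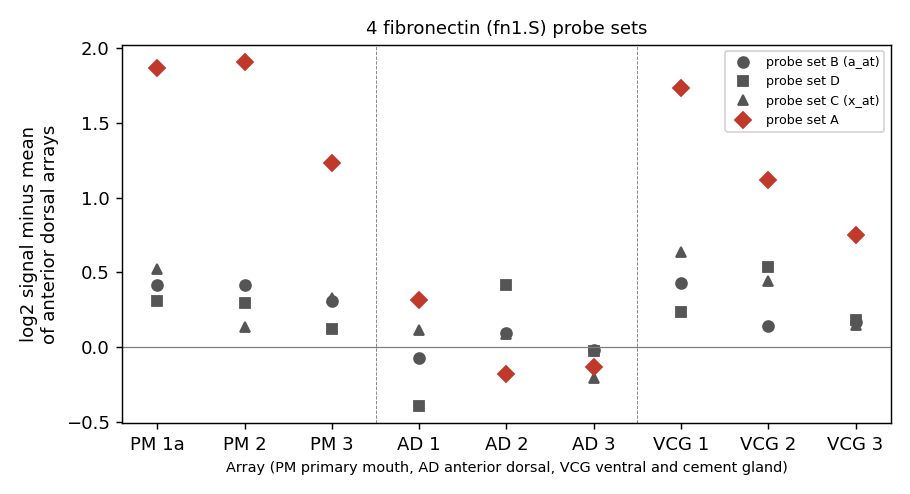
Log2 signal of the 4 fn1.S probe sets on each array, minus the mean of the anterior dorsal arrays for that probe set. Probe set A (red diamonds) is above every other probe set on all primary mouth and ventral arrays, by 1.64 on average over the anterior dorsal arrays in primary mouth on the scale with 16 added, and the other 3 stay closer together.

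Fibulin 1, a calcium-binding glycoprotein of basement membranes and elastic fibres, ordered all 3 tissues. fbln1.L had 387, 594 and 502 in primary mouth, 664, 912 and 743 in the anterior dorsal piece and 275, 355 and 285 in the ventral and cement gland piece, and the 3 groups did not overlap. It was higher than in ventral tissue by 0.66 ± 0.19 (SE, adjusted p = 0.0409) and, in anterior dorsal minus ventral tissue, by 1.29 ± 0.19 (SE, adjusted p = 0.000368). Against anterior dorsal tissue the difference of -0.64 ± 0.19 (SE, adjusted p = 0.0619) did not pass, and with the array set as a term it was -0.58 (adjusted p = 0.0337). The call against ventral tissue was lost without primary mouth array 2 or 3, anterior dorsal array 3 or ventral array 1, 2 or 3, with differences of 0.52 to 0.76 and adjusted p of 0.0512 to 0.139.

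Fibrillin 3, a microfibril protein, was low in the ventral piece. The brighter fbn3.L probe set, A, had 963, 752 and 701 in primary mouth, 845, 922 and 1045 in the anterior dorsal piece and 462, 609.7 and 516 in the ventral and cement gland piece. Primary mouth and anterior dorsal arrays overlapped and all lay above the ventral ones. Against ventral tissue the difference was 0.59 ± 0.17 (SE, adjusted p = 0.0419), 0.86 within array set 1 and 0.31 within set 2, and anterior dorsal minus ventral tissue gave 0.81 ± 0.17 (SE, adjusted p = 0.0045). Without primary mouth array 1a or 2, anterior dorsal array 2 or 3 or ventral array 1 or 3, the primary mouth call was lost (adjusted p of 0.0596 to 0.155). The dimmer one, B, had 35.1, 25.5 and 26.6 in primary mouth, 33.1, 39.1 and 39.9 in the anterior dorsal piece and 20.9, 18.6 and 21.8 in the ventral and cement gland piece, with 0.30 ± 0.15 (SE, adjusted p = 0.215) against ventral tissue and 0.55 ± 0.15 (SE, adjusted p = 0.0178) for anterior dorsal minus ventral tissue. Leaving out anterior dorsal array 2 or 3 or ventral array 2 ended that last call (adjusted p of 0.0673 to 0.0725).

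Of 8 probe sets for fibril-forming collagens, 2 were bright enough to test. col1a2.L, a chain of collagen I, had 19, 3.98 and 14.5 in primary mouth, 26.9, 36.3 and 39.1 in the anterior dorsal piece and 22.9, 43.4 and 26.7 in the ventral and cement gland piece. The primary mouth arrays were the lowest of the 9, with a difference of -0.84 ± 0.23 (SE, adjusted p = 0.0381) against anterior dorsal and -0.74 ± 0.23 (SE, adjusted p = 0.0526) against ventral tissue. With the array set as a term the difference against ventral tissue passed too, at -0.64 (adjusted p = 0.0416), but the signals are low and col1a2.L exceeded its filter threshold on 3 arrays only. Leaving out primary mouth array 2, the lowest at 3.98, anterior dorsal array 2 or 3 or ventral array 3 ended the call against anterior dorsal tissue (adjusted p of 0.0510 to 0.146). The untested probe sets, for col1a1.S, col3a1.S and col5a1.L, did not share this order. Fitted without the filter they ran from -0.10 to 0.64 against anterior dorsal tissue, with none past the test. A col3a1.S probe set had 38.5, 24.4 and 21.2 in primary mouth, above every array of both neighbours. col2a1.S, the chain of cartilage collagen II, had 78, 39.4 and 17 in primary mouth, 75.2, 92.2 and 62.6 in the anterior dorsal piece and 40.5, 40.2 and 18.7 in the ventral and cement gland piece. Anterior dorsal arrays were above the ventral ones but overlapped primary mouth 1a, and no difference passed, the nearest being 0.94 ± 0.33 (SE, adjusted p = 0.0566) for anterior dorsal minus ventral tissue. That difference passed with the array set as a term, at 0.94 (adjusted p = 0.0128), and so did primary mouth minus anterior dorsal tissue, at -0.89 (adjusted p = 0.0429).

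Collagen IX, a fibril-associated (FACIT) collagen of cartilage, and matrilin 4, an adaptor protein of the same kind of matrix, were both low in the ventral piece. col9a1.L had 46.5, 34.9 and 34.8 in primary mouth, 35.9, 24.2 and 20.8 in the anterior dorsal piece and 13.8, 12.6 and 11.5 in the ventral and cement gland piece. Its difference was 0.93 ± 0.17 (SE, adjusted p = 0.00279) against ventral tissue and 0.36 ± 0.17 (SE, adjusted p = 0.237) against anterior dorsal tissue, with primary mouth array 3 at 34.8 and anterior dorsal array 1 at 35.9 overlapping. Anterior dorsal minus ventral tissue gave 0.57 ± 0.17 (SE, adjusted p = 0.0264), a call lost without anterior dorsal array 1 or 2 or ventral array 2 or 3 (adjusted p of 0.0566 to 0.109). matn4.L had 66, 65.5 and 61.6 in primary mouth, 70.0, 61.5 and 60.5 in the anterior dorsal piece and 11, 12.2 and 8.11 in the ventral and cement gland piece. Primary mouth and anterior dorsal arrays overlapped and the ventral arrays lay far below. The differences were 1.61 ± 0.15 (SE, adjusted p = 2.01e-05) against ventral tissue and 0.01 ± 0.15 (SE, adjusted p = 0.98) against anterior dorsal tissue. Since the ventral signals were below the filter threshold, the size of the first depends on the value added before taking logs. It ran from 0.79 with 64 added to 2.53 with 1 added, and the call was made under all alternatives in which it was tested.

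Both genes lay below the filter threshold on all ventral arrays, passing on 4 arrays for col9a1.L and 6 for matn4.L. The summed signal of 11 probe sets on an otic vesicle marker list was 668 to 856 in primary mouth, 1218 to 1495 in anterior dorsal and 251 to 311 in ventral tissue. Several of the 11, tested ones among them, were for the same gene, pax2.L. The list was drawn up as otx1, pax2, pax8, oc90 and sox10, and where else these genes are expressed was not examined. sox10 was also on the neural crest list. The sum therefore does not mark the otic vesicle alone and does not show otic tissue in any piece. For 7 notochord probe sets the sum was 323 to 557 in primary mouth, 278 to 369 in anterior dorsal and 148 to 180 in ventral tissue. All 5 tested probe sets of the otic list, not all of separate genes, were higher than in ventral tissue (background 4.42%). Against anterior dorsal tissue 1 was lower (4.87%). Of 4 notochord ones 2 were higher than in ventral tissue, with 1 higher and 1 lower than in anterior dorsal tissue. Tested pax2.L probe sets, 1 of them at 14.4, 24.1 and 15.4 on the ventral arrays, exceeded the filter threshold on no ventral array. The same held for not.L of the notochord list. They were tested only through tissues in which they were high, so these counts are a description and give no support. The part of both lists in the col9a1.L and matn4.L differences was not tested. The beaded collagen VI chains gave no call. col6a1.L had 473, 343 and 238 in primary mouth, 390.3, 285 and 257 in the anterior dorsal piece and 436, 326 and 314 in the ventral and cement gland piece, with overlap between all groups. col6a2.L averaged 32.8 ± 11 in primary mouth, 25.3 ± 5.43 in the anterior dorsal piece and 37.7 ± 5.05 in the ventral and cement gland piece (SD, n = 3 each), and its 2 neighbouring tissues did not overlap, with all anterior dorsal arrays below the ventral ones at -0.39 ± 0.19 (SE, adjusted p = 0.182).

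Thrombospondin 3, a matricellular calcium-binding glycoprotein, ordered the tissues as fbln1.L did in its tested probe set only. The tested thbs3.L probe set had 29.4, 28.8 and 19.1 in primary mouth, 48.6, 58.9 and 62.6 in the anterior dorsal piece and 15.5, 14.3 and 4.5 in the ventral and cement gland piece, with no overlap between any pair of groups. The primary mouth was lower than anterior dorsal tissue, at -0.81 ± 0.20 (SE, adjusted p = 0.0211) and differed from ventral tissue by 0.62 ± 0.20 (SE, adjusted p = 0.0532), which did not pass. This was 0.57 (adjusted p = 0.0447) with the array set as a term. Anterior dorsal minus ventral tissue gave 1.43 ± 0.20 (SE, adjusted p = 0.000188). The call against anterior dorsal tissue was lost without primary mouth array 3 or anterior dorsal array 2 or 3 (adjusted p of 0.0568 to 0.0933), and the difference was -0.52 within array set 1. thbs3.L exceeded the filter threshold on 3 arrays, those of anterior dorsal tissue, so it passed the filter only through the tissue in which it was high, and its signal in the other tissues is near the floor. The other 9 matricellular probe sets were not bright enough to test.

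**Figure D5:**
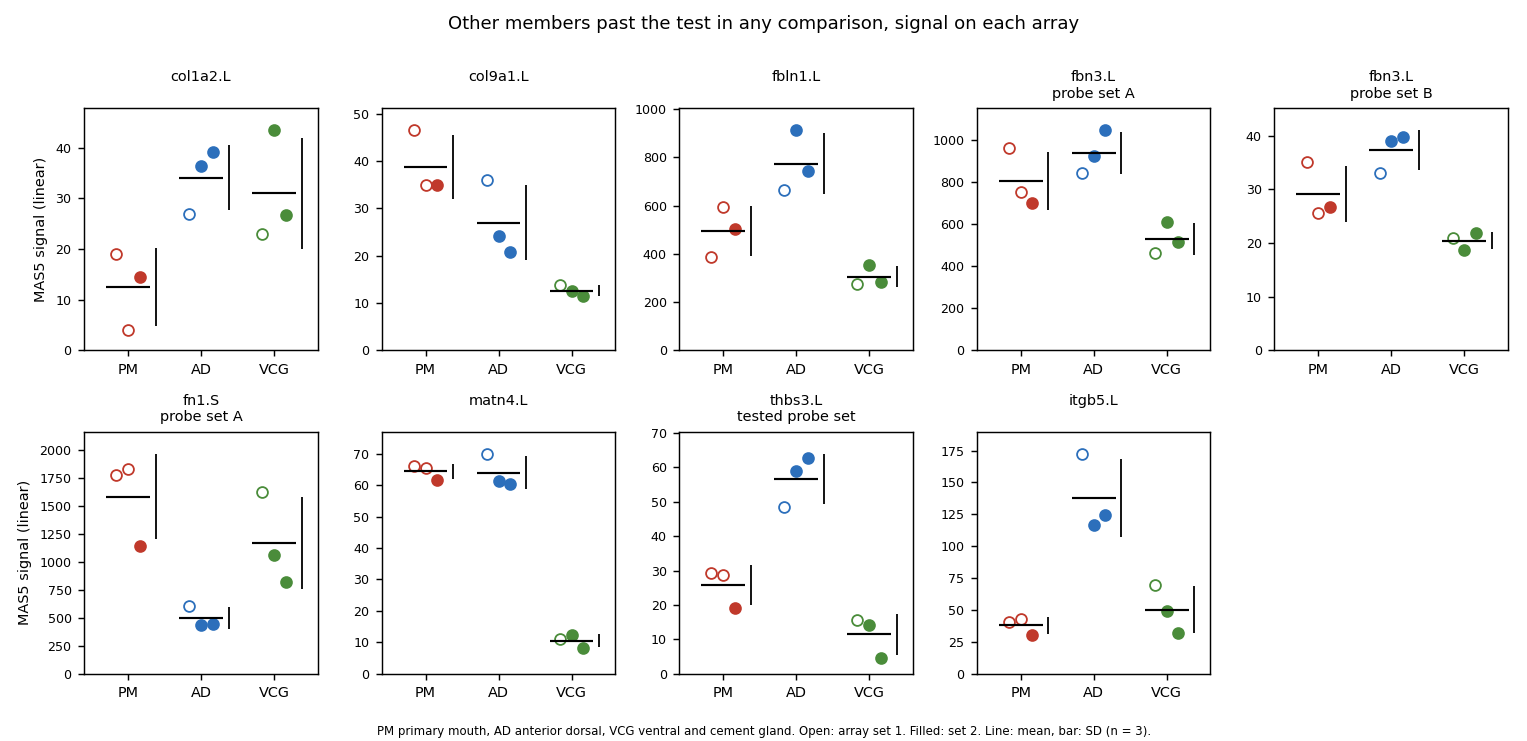
MAS5 signal (linear) of the 9 other members past the test in any comparison, on each array of primary mouth (PM), anterior dorsal (AD) and ventral and cement gland (VCG) tissue, open circles for array set 1 and filled for set 2, with the mean as a line and the SD as a bar (n = 3). itgb5.L and thbs3.L stand highest in AD, matn4.L is level in PM and AD and low in VCG, and col1a2.L is lowest in PM.

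Collagen folding and crosslinking enzymes had 4 tested of 5 probe sets, and 0 passed in any comparison by limma. At an unadjusted p under 0.05, 2 were higher than in anterior dorsal and 1 higher than in ventral tissue, with no share over all probe sets computed. serpinh1.S, the collagen chaperone HSP47, had 636, 415 and 787 in primary mouth, 368, 439 and 444 in the anterior dorsal piece and 449.6, 581 and 591 in the ventral and cement gland piece. Groups overlapped, at 0.50 ± 0.22 (SE, adjusted p = 0.204) against anterior dorsal tissue, and with the array set as a term at 0.63 (adjusted p = 0.015). p4ha2.L, a prolyl 4-hydroxylase subunit, had 103, 87.8 and 81.9 in primary mouth, 71.6, 56.9 and 48.9 in the anterior dorsal piece and 67.4, 69.8 and 79.2 in the ventral and cement gland piece. Every primary mouth array was above every other, though by little over the ventral array at 79.2, and the differences were 0.51 ± 0.17 (SE, adjusted p = 0.0833) and 0.27 ± 0.17 (SE, adjusted p = 0.318). plod3.L, a lysyl hydroxylase, had 162, 177 and 173 in primary mouth, 106, 153 and 133 in the anterior dorsal piece and 215, 210.0 and 149 in the ventral and cement gland piece, and loxl1.L, a lysyl oxidase-like crosslinking enzyme, had 185, 174 and 181 in primary mouth, 164, 181 and 172 in the anterior dorsal piece and 133, 157 and 93.7 in the ventral and cement gland piece. Their differences against anterior dorsal tissue were 0.36 ± 0.18 (SE, adjusted p = 0.28) and 0.06 ± 0.18 (SE, adjusted p = 0.887).

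Integrin β5, a subunit of the vitronectin receptor αvβ5, had the largest negative difference of primary mouth from anterior dorsal tissue among the tested members. itgb5.L had 40.1, 42.8 and 30.6 in primary mouth, 173, 117 and 124 in the anterior dorsal piece and 69.3, 49.3 and 32.2 in the ventral and cement gland piece. All anterior dorsal arrays were above all others, and the primary mouth and ventral arrays overlapped. Its difference was -1.50 ± 0.23 (SE, adjusted p = 0.000918) against anterior dorsal tissue, -1.71 and -1.55 within the array sets, and -0.27 ± 0.23 (SE, adjusted p = 0.475) against ventral tissue. Anterior dorsal minus ventral tissue gave 1.24 ± 0.23 (SE, adjusted p = 0.00154), and both calls were made under all 20 alternatives in which it was tested. The forebrain marker list was also highest in anterior dorsal tissue, and its part in the itgb5.L difference was not tested.

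Integrin β1, the common partner of the laminin and fibronectin receptors, gave no difference past the test. The brighter itgb1.L probe set had 1162, 1363 and 838 in primary mouth, 909, 712 and 786 in the anterior dorsal piece and 745, 919 and 959.7 in the ventral and cement gland piece, and itgb1.S had 423, 343 and 572 in primary mouth, 419.6, 537 and 534 in the anterior dorsal piece and 407, 553 and 524 in the ventral and cement gland piece. Groups overlapped for both, with 0.45 ± 0.20 (SE, adjusted p = 0.194) and -0.17 ± 0.20 (SE, adjusted p = 0.67) against anterior dorsal tissue. The dimmer itgb1.L probe set and itgb3.L, a subunit of the αvβ3 receptor, had no difference past the test either.

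Of 20 integrin α probe sets, 1 was tested. itga3.L encodes the α3 subunit that pairs with β1 to bind laminins, and its tested probe set had 114, 82.3 and 72.5 in primary mouth, 98.4, 83 and 71.6 in the anterior dorsal piece and 138, 127 and 119 in the ventral and cement gland piece. The ventral arrays lay above all the others, and the difference of -0.47 ± 0.19 (SE, adjusted p = 0.121) against ventral tissue did not pass, and it was -0.56 (adjusted p = 0.0193) with the array set as a term. Another itga3.L probe set was below the filter threshold on all arrays with a highest signal of 28.4, and without the filter it was higher in primary mouth, by 0.89 against anterior dorsal (adjusted p = 0.00593) and 0.93 against ventral tissue (adjusted p = 0.00375), opposite in direction to the brighter probe set against ventral tissue.

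The 52 untested members had a median signal of 6.36 and a highest one of 42.9, and 47 of them exceeded the threshold on no array. They comprised 19 integrin α and 8 integrin β probe sets, 9 matricellular, 6 fibril-forming collagen, 4 collagen IV, 2 FACIT collagen and 2 leucine-rich proteoglycan (bgn.L and lum.L) probe sets, plod1.S and col8a1.S. A low signal does not show that a gene is silent. Fitted without the filter, some of them passed, on signals below the threshold. thbs4.L, thrombospondin 4, had 2.86, 1.07 and 6.36 in primary mouth, 13.3, 12.8 and 12.2 in the anterior dorsal piece and 2.19, 1.42 and 5.36 in the ventral and cement gland piece, and the anterior dorsal arrays lay above all the others. Its differences were -0.58 (adjusted p = 0.0234) against anterior dorsal tissue and 0.61 (adjusted p = 0.00787) for anterior dorsal minus ventral tissue. A second collagen IX probe set, col9a1-b, was higher than in ventral tissue, by 0.66 (adjusted p = 0.0107), and anterior dorsal minus ventral tissue gave 0.51 (adjusted p = 0.0263). itgb1bp2.L was lower than in ventral tissue, at -0.61 (adjusted p = 0.032), with -0.74 (adjusted p = 0.00629) for anterior dorsal minus ventral tissue. For that last comparison itga4.S, the integrin α4 subunit, gave -0.59 (adjusted p = 0.0127) and a thbs1.L (thrombospondin 1) probe set -0.44 (adjusted p = 0.0365). The last itga3.L probe set was higher than in anterior dorsal tissue, by 0.49 (adjusted p = 0.0349). Of the tested, 21 exceeded the threshold on all 9 arrays and 10 on 3 to 8.

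Lists of other matrix genes, chosen by function, were counted in the same fit. Among 11 tested probe sets of interstitial matrix genes, 4 were higher (background 4.68%) and 0 lower (4.87%) than in anterior dorsal tissue. Against ventral tissue 3 were higher (4.42%) and 3 lower (10.1%). With the array set as a term 7 were higher (7.9%) and 1 lower (8.11%) than in anterior dorsal tissue. Against ventral tissue with that term 7 were higher (8.76%) and 3 lower (13.8%). vcan.L, the hyaluronan-binding proteoglycan versican, had 985, 753 and 827 in primary mouth, 273, 272 and 247 in the anterior dorsal piece and 391, 441 and 589 in the ventral and cement gland piece, above every array of both neighbours, with differences of 1.63 ± 0.18 (SE, adjusted p = 9.6e-05) and 0.84 ± 0.18 (SE, adjusted p = 0.00716). emilin1.L, an elastic fibre glycoprotein, had 292, 368 and 345 in primary mouth, 151, 163 and 162 in the anterior dorsal piece and 152, 175 and 137 in the ventral and cement gland piece, and it too was higher in both comparisons, by 1.003 ± 0.16 (SE, adjusted p = 0.00127) and 1.04 ± 0.16 (SE, adjusted p = 0.000876). The hyaluronan synthase has2.S was higher than in anterior dorsal tissue, by 1.94 ± 0.37 (SE, adjusted p = 0.00488). has1.S, at -2.997 ± 0.37 (SE, adjusted p = 0.000202), and the hyaluronan link protein hapln3.L, at -1.44 ± 0.15 (SE, adjusted p = 6.85e-05), were lower than in ventral tissue.

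Of 12 tested probe sets for matrix-degrading enzymes and their inhibitors, 5 were higher (background 4.68%) and 0 lower (4.87%) than in anterior dorsal tissue. Against ventral tissue 2 were higher (4.42%) and 2 lower (10.1%). mmp11.L and timp2.L, each among the 5, exceeded the filter threshold on no anterior dorsal array. They were tested only through tissues in which they were high. mmp1.S, also among the 5, was below the threshold on every primary mouth and anterior dorsal array. Its highest primary mouth signal was 17.1 and its highest anterior dorsal one 4.61. It was tested only through ventral tissue, where it was high, so these counts are a description and give no support. The metalloprotease mmp28.L had 400.3, 374 and 283 in primary mouth, 198, 124 and 145 in the anterior dorsal piece and 98.1, 82.5 and 86.4 in the ventral and cement gland piece, with no overlap, and was higher by 1.11 ± 0.20 (SE, adjusted p = 0.00285) and 1.80 ± 0.20 (SE, adjusted p = 7.98e-05). serpine2.S, the protease inhibitor nexin 1, had 299, 273 and 234 in primary mouth, 106, 83.7 and 128 in the anterior dorsal piece and 134, 111 and 121 in the ventral and cement gland piece and was higher by 1.23 ± 0.18 (SE, adjusted p = 0.00073) and 1.04 ± 0.18 (SE, adjusted p = 0.00198). The collagenase mmp1.S and the stromelysin mmp3.L were lower than in ventral tissue, at -1.94 ± 0.15 (SE, adjusted p = 6.07e-06) and -1.32 ± 0.29 (SE, adjusted p = 0.00917). Against anterior dorsal tissue, the mmp11.L call was lost without primary mouth array 1a or 2, any anterior dorsal array or ventral array 2 (adjusted p of 0.0525 to 0.139). That of timp2.L was lost without primary mouth array 1a or 2 or anterior dorsal array 2 or 3 (adjusted p of 0.0614 to 0.092). That of mmp1.S was lost without anterior dorsal array 2 (adjusted p = 0.0712).

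In the list of other basement membrane and interface matrix genes, 2 probe sets were tested and both were higher than in ventral tissue (background 4.42%). They were tgfbi.L, an adhesive protein induced by TGFβ, at 2.13 ± 0.21 (SE, adjusted p = 3.84e-05), and the SPARC relative fstl1.L at 1.04 ± 0.23 (SE, adjusted p = 0.0105). Neither passed against anterior dorsal tissue, at 0.65 ± 0.21 (SE, adjusted p = 0.082) and 0.46 ± 0.23 (SE, adjusted p = 0.271). Of 10 tested collagen processing partners, 0 passed against anterior dorsal tissue (background 4.68% higher and 4.87% lower). At an unadjusted p under 0.05 by limma, 1 was higher. Against ventral tissue 0 were higher (4.42%) and 1 was lower (10.1%). The lower one was p4hb.L (protein disulphide isomerase, the β subunit of prolyl 4-hydroxylase), at -0.85 ± 0.20 (SE, adjusted p = 0.0116). A second p4hb.L probe set gave -0.38 ± 0.18 (SE, adjusted p = 0.206). Leaving out ventral array 3 ended the fstl1.L and p4hb.L calls, with adjusted p of 0.0527 and 0.0587.

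Of 26 tested probe sets for other matrix and adhesion receptors, 1 was higher (background 4.68%) and 2 lower (4.87%) than in anterior dorsal tissue. Against ventral tissue 3 were higher (4.42%) and 4 lower (10.1%). The 3 higher ones were sdc4.L, fermt2.L and gpc4.L. Each lost its call without primary mouth array 1a or ventral array 2 or 3, with differences of 0.62 to 1.06 and adjusted p of 0.0615 to 0.161. Both lower ones against anterior dorsal tissue were bcam.L, and the higher one was the integrin activator kindlin 1 (fermt1.S), at 0.64 ± 0.16 (SE, adjusted p = 0.0221). fermt1.S was lower than in ventral tissue, at -1.17 ± 0.16 (SE, adjusted p = 0.000334). Leaving out primary mouth array 2 or 3 or any anterior dorsal array ended the first of these fermt1.S calls (adjusted p of 0.0529 to 0.0783). For anterior dorsal minus ventral tissue the background was 10.5% higher and 14.1% lower. The higher and lower counts were 1 and 5 in interstitial matrix and 1 and 4 in enzymes and inhibitors. They were 1 and 0 in the interface list, 0 and 2 in processing partners and 1 and 2 in receptors.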

How the data were processed

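RNA of 9 pooled samples was hybridised to an Affymetrix *Xenopus laevis* array. The deposited intensity values are linear MAS5 signals, per the submitters' processing notes, and all 9 columns share a trimmed mean of about 150. The MAS5 version is not given in the sources used here, and detection calls were not analysed here. Probe sets were named from the platform annotation, of 15611 probe sets 9304 with 1 symbol, 195 with several, 5992 with none and 120 controls. By gene ID, 81 of the 83 members matched RefSeq genes (Xenopus_laevis_v10.1) with no symbol changed. 4 probe sets with several symbols that include a member's were left out.

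Signals were tested as log2(signal + 16) with limma 3.58.1 in R 4.3.3 (lmFit, then eBayes with a trend), all 9 arrays in one fit. A probe set was tested where at least 3 arrays exceeded the 40th percentile of their own array, which kept 10011. p-values were adjusted by Benjamini-Hochberg over these, with a threshold of 0.05. The code was tested on simulated data. Adding 16 shrinks differences of dim probe sets.

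The members, 5 matrix gene lists and 11 marker lists were chosen with earlier results of these data known. Values are given for all tested basement membrane members and for up to 5 probe sets by F-test in every other role. For the 5 matrix gene lists, values are given for some probe sets only, not always those with the largest differences. None of those list differences is for anterior dorsal minus ventral tissue. Values of other members were added after they were seen. Arrays of 1 tissue correlated at 0.959 to 0.989 and none were identical. 21 alternatives were run.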

Additional observations from a re-analysis of the deposited data

How the results depend on the processing

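The counts of members past the test were recomputed under 21 alternatives, 2 of them (1 probe set per gene, and the array set as a term with no filter) chosen after seeing the data. None of the 20 calls among members changed sign under any alternative, and 9 were made under all of those in which they were tested. Higher and lower counts are given below for primary mouth minus anterior dorsal tissue (1 and 4 as reported), primary mouth minus ventral tissue (5 and 0), anterior dorsal minus ventral tissue (9 and 1), and both primary mouth comparisons together (0 and 0), where they moved by more than 1.5 times. The share over all probe sets can change with the alternative too, and it is given only for the array set as a term, in the results above. A larger count is therefore not in itself a gain among members, and these counts are a description. The cause was not tested unless stated.

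With a pseudocount of 1, 2 were lower than in anterior dorsal tissue. With no filter, 3 were higher than in anterior dorsal tissue, 1 was lower than in ventral tissue, 4 were lower in anterior dorsal than ventral tissue and 1 was higher in both. A filter at the 60th percentile, which tests fewer members, gave 2 lower than in anterior dorsal tissue, 3 higher than in ventral tissue and 5 higher in anterior dorsal than ventral tissue. Quantile normalization gave 2 lower in anterior dorsal than ventral tissue. One probe set per gene, which drops the fn1.S call, gave 0 higher than in anterior dorsal tissue and 0 lower in anterior dorsal than ventral tissue.

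With the array set as a term, 4 were higher and 7 lower than in anterior dorsal tissue, 8 higher and 2 lower than in ventral tissue, 4 lower in anterior dorsal than ventral tissue, and 2 higher and 1 lower in both. Adding no filter to that gave 6 higher than in anterior dorsal tissue, 9 higher and 3 lower than in ventral tissue, 6 lower in anterior dorsal than ventral tissue and 3 higher in both. Within array set 1 alone (4 arrays), 2 were lower than in anterior dorsal tissue, 2 higher than in ventral tissue and 4 higher in anterior dorsal than ventral tissue. Within set 2 alone (5 arrays), 4 were higher than in anterior dorsal tissue, 3 lower in anterior dorsal than ventral tissue and 2 higher in both. In these fits a tissue with 1 array is assumed to vary like the others.

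Leaving out 1 array at a time gave 1 to 2 higher and 2 to 6 lower than in anterior dorsal tissue, 3 to 5 higher and 0 to 1 lower than in ventral tissue, 6 to 10 higher and 1 to 2 lower in anterior dorsal than ventral tissue, and 0 to 1 higher and 0 to 1 lower in both.

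The replicate numbers were not taken as a pairing in the main fit. Deviations of same-numbered arrays correlated from -0.234 to 0.676. Anterior dorsal and ventral arrays correlated best with their own number in each other, at 0.510 to 0.676. Their arrays of different number within array set 2 correlated at 0.0748 and 0.0861. The main p-values leave this pairing out. Primary mouth 1a correlated best with array 1 of both, and primary mouth 3 with array 3 of both. Primary mouth 2 correlated best with array 1 of both, and it alone gave the negative values, -0.234 and -0.123. Numbers and array sets overlap. With the number as a replicate block, 1a taken as 1, the block gave 4 higher and 8 lower than in anterior dorsal tissue, 2 lower than in ventral tissue, 3 lower in anterior dorsal than ventral tissue, and 2 higher and 1 lower in both.

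Signals near the filter threshold limit thbs3.L, col1a2.L, dag1.S, col9a1.L, matn4.L and, in primary mouth and ventral tissue, itgb5.L. The 52 dim members were compared only in the fits with no filter.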
